A study of Homo sapiens with 6 samples.

Results

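The genes described here encode collagen-modifying and crosslinking enzymes: the lysyl oxidases *LOX*, *LOXL1*, *LOXL2*, *LOXL3* and *LOXL4*, the lysyl hydroxylases *PLOD1*, *PLOD2* and *PLOD3*, and *P4HA1* and *P4HA2*, which encode alpha subunits of collagen prolyl 4-hydroxylase. They were taken by symbol from the deposited gene tables, where each of the 10 symbols matched 1 of the 58735 genes listed. The series holds 6 libraries of H2452, an established human pleural mesothelioma line cultured in RPMI-1640 with serum, and all 6 come from cells infected with a lentivirus that carries Cas9, an sgRNA and the mCherry marker used for sorting. In 3 libraries the sgRNA was a scrambled control (sgCtrl, genotype WT) and in 3 it targeted *NF2* (sg*NF2*-1, genotype *NF2*-KO), the gene of the tumor suppressor merlin. A single *NF2* guide and a single cell line were sequenced, the sorted cells were pools, and the labels number the libraries without saying that they come from separate cultures. The methods describe the data of the whole study as biological replicates but do not say how these libraries were grown, and the p-values measure the spread between them, which may be technical.

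Collagen chains are modified while they are still in the endoplasmic reticulum. Prolyl 4-hydroxylase, a complex of alpha subunits with protein disulfide isomerase, hydroxylates prolines and so stabilizes the triple helix, and the lysyl hydroxylases hydroxylate lysines that later carry sugars or form crosslinks. Both kinds of enzyme need iron, 2-oxoglutarate, oxygen and ascorbate. Outside the cell, the copper-dependent lysyl oxidases oxidize lysines and hydroxylysines of collagen and elastin, and the products join neighbouring molecules into stiff fibers. Several of these genes are textbook targets of the hypoxia-inducible factors (HIF), which bind DNA at ACGTG or GCGTG cores. TEAD proteins, the DNA-binding partners of the Hippo effectors YAP and TAZ, act downstream of merlin and recognize GGAATG.

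The total counts of the 6 libraries ranged from 14782423 to 17416463, and no library was set aside. The targeted gene *NF2* had 73.7, 72.9 and 67.5 CPM (reads on the gene relative to the scaled library total) in sgCtrl replicates 1 to 3 and 39.3, 52.0 and 41.4 CPM in sg*NF2*-1 replicates 1 to 3 (log2 fold change -0.69, standard error (SE) 0.10, edgeR adjusted p = 7.87e-06), with no overlap between the groups. Of the 10 markers of mesothelial cells examined, *KRT8*, *KRT18* and *KRT19* had means of 229.8 to 270.1 FPKM in sgCtrl, *KRT7*, *PDPN* and *MSLN* 13.5 to 54.6 FPKM, and *CALB2*, *WT1* and *UPK3B* only 0.825 to 2.41 FPKM, whereas *KRT5* was nearly absent. Of these markers, 3 were higher and 3 lower of 9 tested (33.3% each, against 17.7% and 16.6% of all tested genes). *KRT7*, *MSLN* and *KRT18* were higher (log2 fold changes 1.20, 0.66 and 0.28). *PDPN*, *WT1* and *KRT19* were lower (-1.28, -1.04 and -0.94). Of 5 markers of other cells, *PTPRC* was at 0 in all libraries. The endothelial gene *PECAM1* had a log2 fold change of -2.28 from 6.31 ± 0.830 CPM in sgCtrl (SD, n = 3, edgeR adjusted p = 1.66e-07). The sum of the 5 markers was between 6.13 and 8.47 CPM in sgCtrl libraries and between 2.39 and 3.63 CPM after *NF2* targeting. Of the 5, only *PECAM1* had a lower mean after targeting. The mean of *CDH5* went from 0.898 to 1.18 CPM, and the gene did not pass (log2 fold change 0.37, adjusted p = 0.534, edgeR). *EPCAM* and *DES* were not tested and averaged at most 0.280 CPM in either group. The part of these markers in the results below was not tested.

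Stretches before a transcription start of *PLOD2*, *LOX* and *LOXL3* are printed as examples with matches, picked with the values known. *PLOD2* and *LOX* hold ACGTG matches and fell. *LOXL3* holds GGAATG matches and had values above sgCtrl, but was not called at an adjusted p under 0.05 (adjusted p = 0.0504, edgeR). The stretches are RefSeq sequences of GRCh38.p14, written 5′ to 3′ on the gene's strand, and bases inside annotated exons are left out. Capitals mark the letters ACGTG (read in reverse as CACGT), the related core GCGTG (in reverse CACGC) and the TEAD letters GGAATG (in reverse CATTCC), each searched on both strands. The *PLOD2* stretch is chr3:146161185-146161434, minus strand, the *LOX* stretch chr5:122078361-122078509, minus strand, and the *LOXL3* stretch chr2:74553962-74554085, minus strand. The *PLOD2* and *LOXL3* stretches lie within the gene spans given below and precede a start downstream of the gene's outermost 5′ end.
PLOD2: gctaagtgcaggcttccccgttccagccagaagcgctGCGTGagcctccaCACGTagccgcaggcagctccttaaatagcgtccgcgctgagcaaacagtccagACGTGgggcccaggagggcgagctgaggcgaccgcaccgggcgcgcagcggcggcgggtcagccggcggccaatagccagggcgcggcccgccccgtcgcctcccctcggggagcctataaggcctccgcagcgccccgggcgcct
LOX: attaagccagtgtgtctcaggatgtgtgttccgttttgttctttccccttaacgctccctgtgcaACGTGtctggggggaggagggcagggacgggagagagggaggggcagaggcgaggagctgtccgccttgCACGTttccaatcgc
LOXL3: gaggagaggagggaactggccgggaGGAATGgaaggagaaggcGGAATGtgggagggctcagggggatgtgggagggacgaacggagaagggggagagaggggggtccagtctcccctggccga

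Windows of 250 bases upstream of the start were found for 9 of the 10 genes. ACGTG occurred in 3 of the 9, *PLOD2*, *LOX* and *P4HA1*, against 18.6% of 27305 promoter windows of the same length in the RefSeq table. The match of *P4HA1* lies 86 to 82 bases before the start, inside a GENCODE exon, and is not printed. *LOX* also holds ACGTG matches 98 to 94 and 42 to 38 bases before the start, in the exonic part that is not printed. GCGTG occurred in *PLOD1* and *PLOD2*, or 2 of 9, against 31.9% of all windows, and GGAATG in *LOXL3* only, against 12.0%. *LOXL1*, *LOXL4* and *P4HA2*, which fell, and *PLOD3*, which showed no detectable change, held none of these letters. The windows of *LOXL1*, *P4HA2* and *PLOD3* lie wholly inside annotated exons and within the gene spans given below. For these genes the lack of matches does not describe sequence upstream of the outermost 5′ end. These letters describe the windows and do not show that a factor binds there, and their part in the changes was not tested.

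Of the 10 enzymes, 8 fell in sg*NF2*-1 and none rose past the threshold. The measure is the count of reads on each gene relative to the library's total after TMM scaling (CPM), tested for all 14179 sufficiently expressed genes with edgeR's quasi-likelihood test, and a gene was called at a Benjamini-Hochberg adjusted p under 0.05. Over all tested genes, 16.6% were called lower and 17.7% higher. The enzymes were chosen with earlier results of these data known, so their calls describe them and are not independent support. The 10 enzymes had a median log2 fold change of -0.68, and all tested genes a median of 0.00. The 0 calls in the higher direction became 1, *LOXL3*, at an unadjusted p under 0.05, and DESeq2 also called 0. At the thresholds of the study (a p under 0.05, taken as unadjusted, and a log2 fold change beyond 0.5), 7 enzymes were lower and 1 was higher, against 10.8% and 9.22% of all tested genes. In 8 of the 10 every sg*NF2*-1 library lay below every sgCtrl library, as in 22.2% of all tested genes, and in 1 every one lay above, as in 23.2%. In cultures measured in bulk, fewer cells that express a gene and less RNA per cell cannot be told apart.

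**Figure D1:**
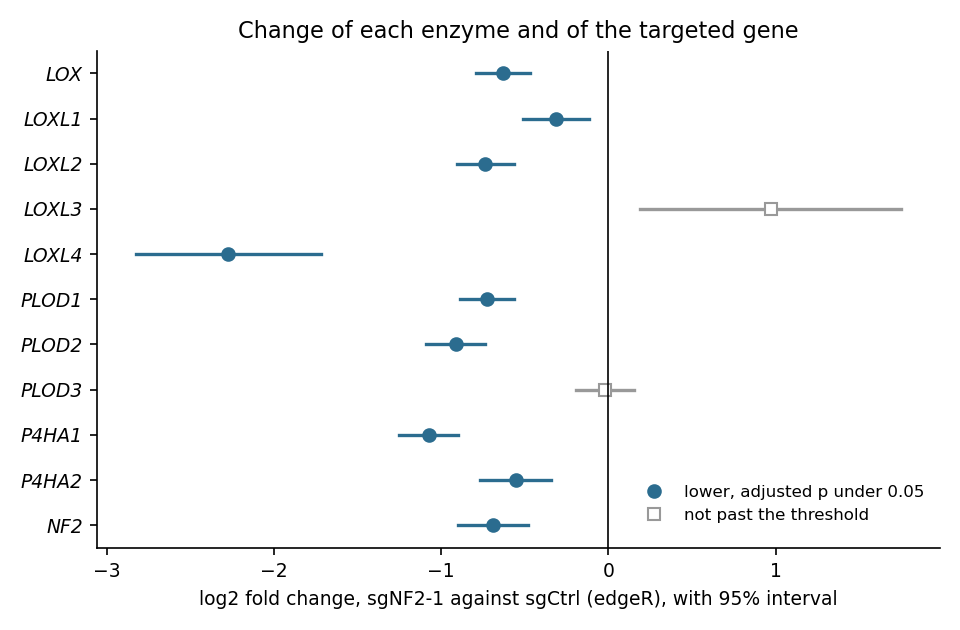
Log2 fold change of each enzyme and of *NF2* in sg*NF2*-1 against sgCtrl (x axis), from edgeR on 3 libraries per group, with bars for the 95% interval. Filled circles are genes lower at an adjusted p under 0.05 and open squares genes that did not pass: *PLOD3* lies on the zero line at -0.02 and *LOXL3* at 0.97 with a wide interval.

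Levels between genes can be compared as FPKM, the deposited count divided by gene length and library depth. In sgCtrl the order ran from *PLOD2* (268 ± 3.94 FPKM, SD, n = 3) and *LOXL2* (154 ± 8.40) through *PLOD1* (64.0 ± 2.52) and *LOX* (63.7 ± 1.68), whose libraries overlapped, to *P4HA1* (40.0 ± 2.31), *PLOD3* (27.2 ± 1.65), *LOXL1* (20.9 ± 1.06), *P4HA2* (4.87 ± 0.515), *LOXL4* (1.42 ± 0.155) and *LOXL3* (0.198 ± 0.0817). *PLOD2* ranked 115 by FPKM among the 14179 tested genes. In sg*NF2*-1, *PLOD2* and *LOXL2* were again the highest, at 141 ± 8.14 and 91.9 ± 2.73 FPKM (SD, n = 3 each). Lower in the order, *PLOD3* (26.6 ± 2.00 FPKM) stood above *P4HA1* (18.8 ± 0.963 FPKM), the reverse of sgCtrl. The ranges of *LOX* and *PLOD1*, of *P4HA1* and *LOXL1*, and of *LOXL3* and *LOXL4* overlapped in sg*NF2*-1.

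**Figure D2:**
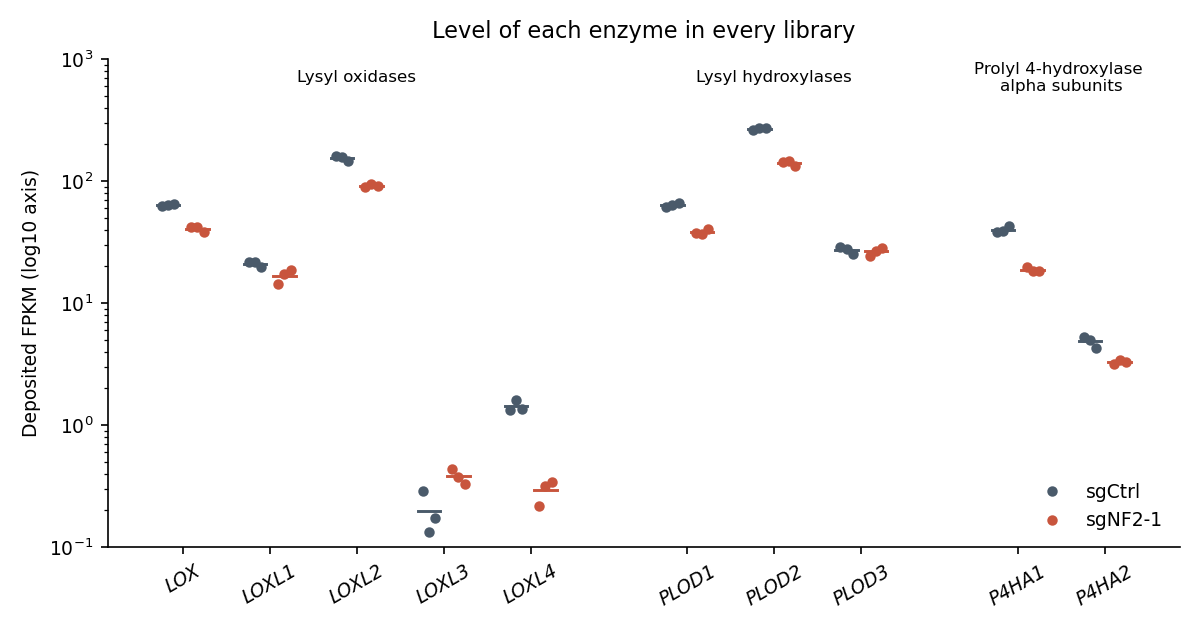
FPKM of the 10 enzymes (log10 axis), with 1 point per library, a horizontal line at the group mean and genes ordered by class. The sg*NF2*-1 points lie below all sgCtrl points for 8 genes, overlap for *PLOD3* and lie above for *LOXL3*, which stays under 0.5 FPKM.

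*PLOD2* (ENSG00000152952, chromosome 3 of GRCh38, 146069440 to 146163653) encodes lysyl hydroxylase 2, which acts on the telopeptides of fibrillar collagen, where the hydroxylated lysines enter the stable pyridinoline crosslinks. It had 2124, 2178 and 2181 CPM in sgCtrl replicates 1 to 3 and 1174, 1196 and 1076 CPM in sg*NF2*-1 replicates 1 to 3. Every sg*NF2*-1 library was far below the lowest sgCtrl library, and the mean was 53.1% of that in sgCtrl. On the log2 scale the change was -0.91 (SE 0.09, edgeR adjusted p = 8.98e-09). As FPKM, it had the 25th largest loss of the tested genes.

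*PLOD1* (ENSG00000083444, chromosome 1, 11934205 to 11975538) encodes lysyl hydroxylase 1, which acts on lysines within the helix and is lost in a form of Ehlers-Danlos syndrome. Its level was 345, 358 and 374 CPM in sgCtrl and 214, 209 and 228 CPM in sg*NF2*-1. The groups were clearly apart, with a log2 fold change of -0.73 (SE 0.08, edgeR adjusted p = 1.09e-07).

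*PLOD3* (ENSG00000106397, chromosome 7, 101205977 to 101218420) encodes lysyl hydroxylase 3, which also transfers glucose and galactose onto hydroxylysine. No change was detectable, with 171, 165 and 152 CPM in sgCtrl and 148, 160 and 173 CPM in sg*NF2*-1. The groups overlapped, and the highest library of all 6 was an sg*NF2*-1 library. The log2 fold change of -0.02 had a 95% interval from -0.19 to 0.15 (adjusted p = 0.885, edgeR), and none of the 12 alternatives called it. Its exons share 429 bases with those of *ZNHIT1* on the opposite strand, which averaged 1561 counts in sgCtrl and 1302 in sg*NF2*-1.

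The makeup of the lysyl hydroxylase transcripts shifted as their sum fell. The summed FPKM of the 3 genes was 353, 362 and 362 in sgCtrl and 206, 211 and 200.5 in sg*NF2*-1, a fall to 57.4%. *PLOD3* made up 7.57% ± 0.541 of this sum in sgCtrl and 12.9% ± 1.20 in sg*NF2*-1 (SD, n = 3 each). The share of *PLOD2* was 74.6% ± 0.110 in sgCtrl and 68.5% ± 2.33 in sg*NF2*-1. Neither share overlapped between the groups (exact two-sided permutation, p = 0.10 for each, the lowest value that 3 libraries against 3 allow). The share of *PLOD1* was 17.8% ± 0.514 and 18.6% ± 1.25 (SD, n = 3 each, exact permutation p = 0.50).

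*P4HA1* (ENSG00000122884, chromosome 10, 73007217 to 73096974) encodes the most widely expressed alpha subunit of prolyl 4-hydroxylase. It had 125, 127 and 139 CPM in sgCtrl and 65.6, 59.7 and 60.2 CPM in sg*NF2*-1. The mean fell to 47.4% of sgCtrl, and its log2 fold change of -1.08 (SE 0.09, edgeR adjusted p = 5e-10) had the smallest p among the 10 enzymes. *P4HA2* (ENSG00000072682, chromosome 5, 132191838 to 132295315) encodes a second alpha subunit. Its level was 47.7, 44.5 and 38.7 CPM in sgCtrl and 28.9, 30.7 and 29.6 CPM in sg*NF2*-1, a log2 fold change of -0.56 (SE 0.10, edgeR adjusted p = 0.000172). The groups did not overlap for either gene. The antisense gene *P4HA2-AS1*, which shares 548 exonic bases with *P4HA2*, had 1 count in 1 library and 0 in the other 5.

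Together the alpha subunits had 43.5, 44.1 and 46.9 FPKM in sgCtrl and 23.1, 21.6 and 21.5 FPKM in sg*NF2*-1, a fall to 49.2%. *P4HA2* made up 10.9% ± 1.56 of the sum in sgCtrl and 14.9% ± 0.999 in sg*NF2*-1 (SD, n = 3 each). All sg*NF2*-1 libraries lay above all sgCtrl libraries for this share (exact permutation p = 0.10, again the lowest value allowed).

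*LOXL2* (ENSG00000134013, chromosome 8, 23297189 to 23425328) encodes a lysyl oxidase with scavenger receptor domains that crosslinks collagen IV of basement membranes. It was the most abundant lysyl oxidase in every library, with 972, 942 and 875 CPM in sgCtrl and 546, 576 and 554 CPM in sg*NF2*-1. The groups were well apart, and the log2 fold change was -0.74 (SE 0.08, edgeR adjusted p = 1.48e-07). *LOX* (ENSG00000113083, chromosome 5, 122063195 to 122078360), the founding member of the family and an enzyme of collagen and elastin crosslinking, had 363, 371 and 383 CPM in sgCtrl and 246, 248 and 228 CPM in sg*NF2*-1. It fell to 64.6% of the sgCtrl mean (log2 fold change -0.63, SE 0.08, edgeR adjusted p = 9.17e-07). *LOX* shares 138 exonic bases with *SRFBP1* on the opposite strand, and *LOXL2* shares 120 with *ENTPD4* on the same strand.

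*LOXL1* (ENSG00000129038, chromosome 15, 73925989 to 73952137) encodes the lysyl oxidase known for the renewal of elastic fibers. It fell less than *LOX* and *LOXL2*, from 82.6, 82.6 and 75.8 CPM in sgCtrl to 55.3, 66.9 and 71.9 CPM in sg*NF2*-1. The highest sg*NF2*-1 library came close to the lowest sgCtrl library without reaching it. The log2 fold change was -0.31 (SE 0.10, edgeR adjusted p = 0.0126), under the fold limit of the study. Without sg*NF2*-1 replicate 1, the lowest of its libraries, it was -0.21 and did not pass (adjusted p = 0.136, edgeR). Its antisense gene *LOXL1-AS1*, with 335 shared exonic bases, averaged 226 counts in sgCtrl and 273 in sg*NF2*-1, and reads in the shared part cannot be told apart unless strand was used in counting, which is not stated.

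*LOXL4* (ENSG00000138131, chromosome 10, 98247690 to 98268250), a scavenger receptor domain lysyl oxidase like *LOXL2* and *LOXL3*, had the largest fold change of the 10 enzymes but a low level. Its reads numbered 80, 101 and 79 in the sgCtrl libraries against 15, 19 and 19 after *NF2* targeting, with no overlap. In CPM this was 5.48 ± 0.588 against 1.14 ± 0.254 (SD, n = 3 each). The log2 fold change of -2.27 (SE 0.27, edgeR adjusted p = 3.39e-07) ranked 39 from the lowest of the 14179 tested genes. The genes with the pattern most like it over the 6 libraries were *AKR1C2*, *NRG2* and *NRCAM*, with root mean square differences of 0.15, 0.16 and 0.17 in log2 CPM after each gene's mean was removed. Their log2 fold changes were -2.15, -2.37 and -2.24.

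*LOXL3* (ENSG00000115318, chromosome 2, 74532414 to 74555690) was the only enzyme of the 10 whose sg*NF2*-1 libraries all lay above the sgCtrl libraries, and it was at the limit of the depth. Its reads numbered 21, 10 and 12 in the sgCtrl libraries against 36, 27 and 22 after *NF2* targeting. The log2 fold change was 0.97 with a 95% interval from 0.19 to 1.75 (unadjusted p = 0.0173, adjusted p = 0.0504, edgeR). It passed the adjusted threshold in 3 of 12 alternatives, whose adjusted p-values ranged from 0.0246 to 0.214 (edgeR and DESeq2). Its exons share 625 bases, or 14.3% of their length, with *HTRA2* and 216 bases with *DOK1*, both on the opposite strand. *HTRA2* averaged 264 counts in sgCtrl and 380 in sg*NF2*-1, far more than *LOXL3*, and its part in the *LOXL3* counts was not tested.

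The lysyl oxidases together had 247, 244 and 232 FPKM in sgCtrl and 146, 155 and 149 FPKM in sg*NF2*-1, a fall to 62.4%. Within this sum the share of *LOXL2* differed by -2.89 percentage points and that of *LOXL1* by 2.43. *LOXL2* made up 64.1% ± 1.43 in sgCtrl and 61.2% ± 0.106 in sg*NF2*-1, *LOX* 26.5% ± 1.57 and 27.2% ± 1.26, and *LOXL1* 8.70% ± 0.175 and 11.1% ± 1.36 (SD, n = 3 each). The shares of *LOXL2* and *LOXL1* did not overlap between the groups (exact permutation p = 0.10 for each), whereas that of *LOX* did (exact permutation p = 0.60).

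**Figure D3:**
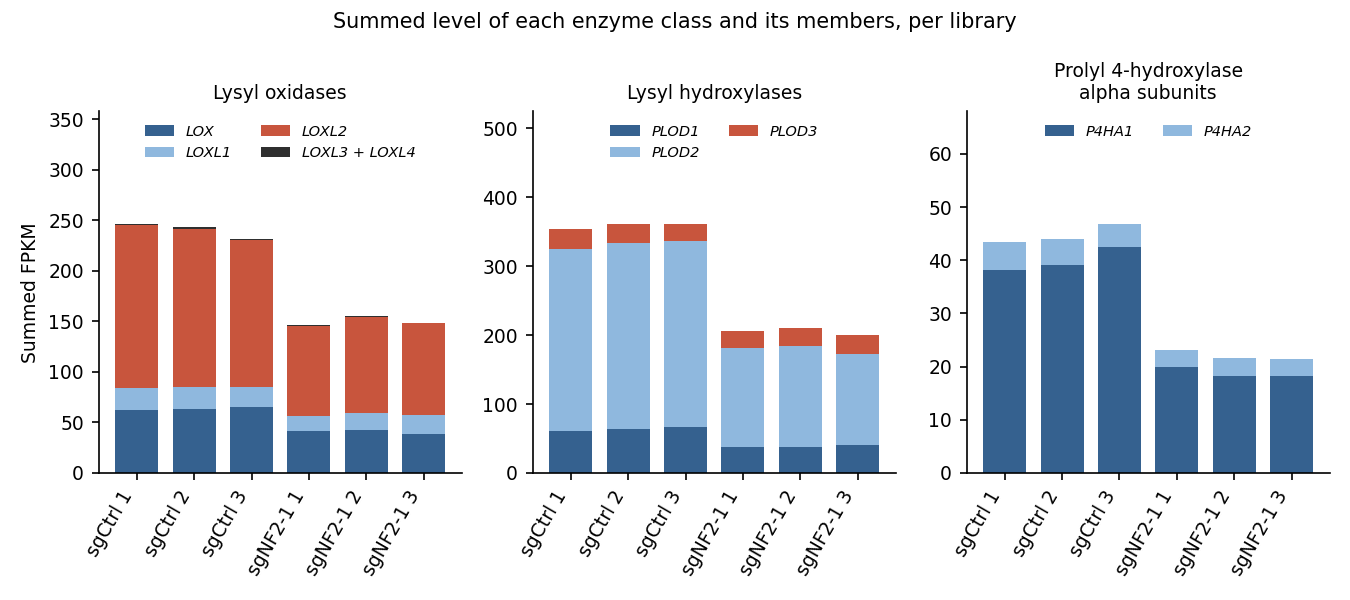
Summed FPKM (y axis, from 0) of the lysyl oxidases, lysyl hydroxylases and prolyl 4-hydroxylase alpha subunits in each of the 6 libraries, with the segments of a bar standing for the member genes (*LOXL3* and *LOXL4* joined) and a separate scale for each class. All 3 sums are lower in sg*NF2*-1, at 62.4%, 57.4% and 49.2% of the sgCtrl mean, while the *PLOD3* segment averages 27.2 FPKM in sgCtrl and 26.6 in sg*NF2*-1.

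The same genes were tested on the deposited FPKM values with limma after log2(FPKM + 1) transformation, which understates the changes of low genes. Of the 10 enzymes, 9 passed the filter on low FPKM and 8 of these were called lower, against 14.1% of the 13038 genes tested. *P4HA1* and *PLOD2* had differences of -1.05 and -0.92 on this scale (standard errors 0.07 each, adjusted p = 9.9e-05 and 0.000181, limma). *LOXL1* was close to the threshold (adjusted p = 0.0455, limma) and was not called in 7 of 9 alternatives (adjusted p from 0.0294 to 0.125 over the 9, limma), and *PLOD3* did not pass (adjusted p = 0.793, limma).

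Transcripts of proteins that work with these enzymes in the endoplasmic reticulum, from chaperones to prolyl 3-hydroxylases, were examined next. Their list, like the lists below, was chosen with earlier results of these data known, and its counts are descriptive. Of 16 such genes, 15 were tested and 11 fell (73.3%, against 16.6% of all tested genes), while the other 4 did not pass, and the median log2 fold change was -0.65. Among them *P3H2*, a prolyl 3-hydroxylase, fell from 38.5 ± 3.37 to 19.0 ± 1.65 CPM (SD, n = 3 each, log2 fold change -1.02, adjusted p = 1.24e-07, edgeR) and *FKBP14*, a prolyl isomerase, from 2.25 ± 0.362 to 1.13 ± 0.319 CPM (adjusted p = 0.0261, edgeR). The following genes were chosen after their values were seen. *P4HB*, the protein disulfide isomerase that completes prolyl 4-hydroxylase, fell from 1134 ± 66.9 to 729 ± 34.2 CPM (log2 fold change -0.64), and *SERPINH1*, the collagen chaperone HSP47, from 502 ± 23.4 to 318 ± 14.3 CPM (-0.66; SD, n = 3 each). *P4HB* and *SERPINH1* had adjusted p-values of 1.94e-06 and 6.09e-07 in edgeR's test. The genes that did not pass were *CRTAP*, *FKBP10*, *TMEM38B* and *MIA3*, with log2 fold changes from -0.16 to -0.07. *P4HA3*, which encodes a further alpha subunit, was low, with means of 2.09 (sgCtrl) and 1.07 (sg*NF2*-1) CPM (adjusted p = 0.032, edgeR).

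Of 8 genes for removal of the collagen propeptides, 4 were tested and all 4 fell (100%, against 16.6% of all tested genes). Their median log2 fold change was -0.91, and 3 were lower at the thresholds of the study, against 10.8% of all tested genes. The count at an adjusted p under 0.05 was also 3 without sgCtrl replicate 1 and without sg*NF2*-1 replicate 2. *PCOLCE*, an enhancer of the C-proteinase, fell by 1.12 on the log2 scale and *ADAMTS14*, an N-proteinase, by 1.09 (standard errors 0.22 and 0.33, adjusted p = 0.000371 and 0.0133, edgeR). Of 8 genes of other crosslinking enzymes and of lysyl oxidase cofactors, 7 were tested, 1 rose and 2 fell (14.3% and 28.6%, median log2 fold change -0.07). Over all tested genes these shares were 17.7% and 16.6%, and nothing is read from the counts of so few genes. *TGM2*, a transglutaminase that crosslinks matrix proteins by another reaction, rose from 19.1 ± 1.66 to 25.8 ± 2.16 CPM (SD, n = 3 each, log2 fold change 0.43, adjusted p = 0.00563, edgeR). *ATP7A*, the copper pump that loads lysyl oxidase in the secretory pathway, fell from 4.77 ± 0.138 to 2.83 ± 0.0220 CPM (-0.75, adjusted p = 0.0104, edgeR). *ATP7A* had 40 to 80 reads per library, and its span overlaps that of *PGK1* on the same strand. The part of *PGK1* in these reads was not tested.

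The substrates of these enzymes included the largest fold changes of the genes named here. Of 12 fibrillar collagen and elastin genes, 7 were tested and 4 fell (57.1%, against 16.6% of all tested genes). The median log2 fold change over the 7 was -1.27. *COL11A2*, *COL27A1* and *COL5A2* did not pass, with log2 fold changes of -0.995, -0.29 and -0.09 (adjusted p = 0.0902, 0.0822 and 0.887, edgeR). *COL3A1* fell from 30.6 ± 0.348 to 2.04 ± 0.328 CPM, *COL1A2* from 119 ± 17.7 to 15.5 ± 2.17 CPM, *COL1A1* from 7.92 ± 1.49 to 1.04 ± 0.338 CPM and *COL5A1* from 282 ± 35.4 to 117 ± 3.23 CPM (SD, n = 3 each). Their log2 fold changes were -3.90, -2.95, -2.95 and -1.27 (largest adjusted p = 3.96e-09, edgeR). *LOXL4* alone among the enzymes had a log2 fold change below that of *COL5A1*. *ELN*, the gene of elastin, had at most 0.109 CPM in either group mean and was not tested.

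**Figure D4:**
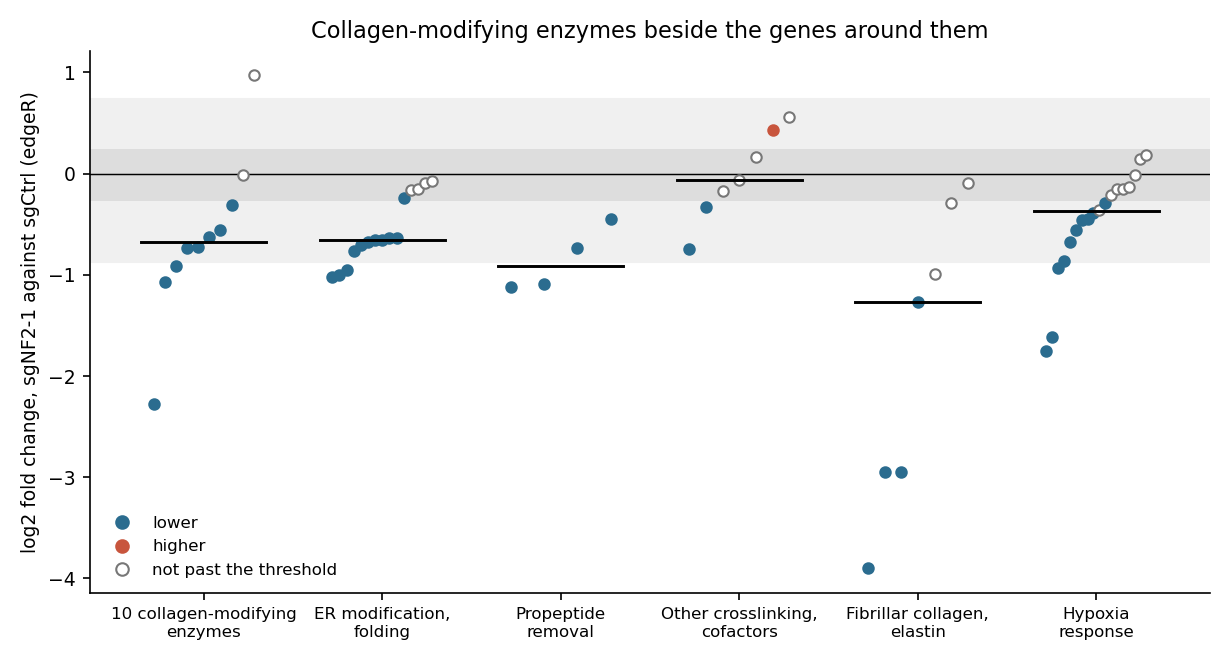
Log2 fold changes in sg*NF2*-1 against sgCtrl (y axis, edgeR) of the 10 enzymes and of the tested genes of 5 lists around them, 1 point per gene, with a horizontal line at each median. The dark band holds the middle 50% of all tested genes and the light bands reach to their 5th and 95th percentiles (-0.88 and 0.73). The enzymes have their median at -0.68, and the fibrillar collagen genes reach -3.90.

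Of 18 regulators and textbook targets of the hypoxia response, all were tested and 10 fell (55.6%, against 16.6% of all tested genes, median log2 fold change -0.37). At the thresholds of the study 6 were lower, against 10.8% of all tested genes. The regulators *HIF1A* and *EPAS1* did not pass (log2 fold changes -0.15 and 0.18, adjusted p = 0.175 and 0.0974, edgeR), and of *VEGFA*, the angiogenic growth factor, the change was 0.15 (adjusted p = 0.185, edgeR). These 3 genes were chosen after their values were seen. *EGLN3*, an oxygen-sensing prolyl hydroxylase that acts on HIF, was at 13.3 ± 0.888 CPM in sgCtrl and 29.4% of that after *NF2* targeting, and *CA9*, a carbonic anhydrase, from 8.98 ± 0.641 to 2.93 ± 0.332 CPM (SD, n = 3 each). Their log2 fold changes were -1.76 and -1.62 (adjusted p = 1.35e-08 and 3.23e-07, edgeR). The list thus moved in part with *PLOD2*, *P4HA1* and *LOX*, and its part in their change was not tested.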

How the data were processed

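RNA was measured in 3 sgCtrl and 3 sg*NF2*-1 libraries of H2452 cells, grouped by the sample titles. Per the submitters' processing notes the build was hg38 and the tools HISAT2, StringTie 1.3.3b and featureCounts 1.5.0-p3. The authors deposited a table of unnormalized gene counts and a table of FPKM, which equals count over gene length and library depth within 1% for genes of at least 50 counts. The strand setting is not given in the sources used here.

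Counts were filtered with filterByExpr (minimum count 10, minimum total 15), scaled by TMM and fitted with edgeR 4.0.16 (R 4.3.3), with the group as the only term. The study used DESeq2, here an alternative (version 1.42.0), and limma 3.58.1 tested log2(FPKM + 1), a pseudocount of 1, over the 13038 genes averaging 0.5 FPKM or more. P-values were adjusted over all tested genes, and the procedures were tested on simulated counts. Sums and shares were compared by exact permutation over libraries. Replicate libraries were distinct beyond counting noise (chi-square per degree of freedom 5.12 to 12.5). The enzymes and gene lists were chosen with earlier results of these data known. From each list, called genes with an absolute log2 fold change of at least 1 are named, at most 5, or else the 2 with the largest change. Alternatives were DESeq2 itself, edgeR with its size factors or plain totals, other filters, a replicate block, omission of single libraries, the thresholds of the study, a pseudocount of 0.1, TMM-scaled FPKM sums and shares of read counts.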

Additional observations from a re-analysis of the deposited data

How the results depend on the processing

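*LOX*, *LOXL2*, *LOXL4*, *PLOD1*, *PLOD2*, *P4HA1* and *P4HA2* were called lower in all 12 alternative fits of the counts and all 9 of FPKM. *LOXL1* was called in 11 of 12 and in 2 of 9, lost in limma with no filter, with the replicate block and without any single library but sg*NF2*-1 replicate 3. Leaving out each library in turn gave 7 to 8 lower enzymes in edgeR and in limma. The number of enzymes called higher went from 0 to 1, *LOXL3*, with at least 10 counts in every library, with the replicate block, at the thresholds of the study and without sgCtrl replicate 1, so that it ranged from 0 to 1 over the libraries left out; 10 to 36 counts per library limit this gene. Same-numbered libraries of the groups did not deviate together (correlations -0.03, 0.06 and 0.05), so the number is not taken as a pairing. Under the block, 1 gene of the hypoxia list, *EPAS1*, was called higher. Without single libraries, 8 to 11 of the endoplasmic reticulum genes were lower (8 without sgCtrl replicate 2 and without sg*NF2*-1 replicate 2). In the same fits, 1 to 3 cofactor genes and 4 to 7 fibrillar collagen genes were lower (7 without sgCtrl replicate 3), and 0 to 1 hypoxia genes were higher. At the thresholds of the study, 0 cofactor genes were higher and 1 lower, and 6 hypoxia genes were lower. Of all tested genes, 9.22% were higher and 10.8% lower at these thresholds. Shares computed from read counts, with no correction for length, differed between the groups by -0.26 percentage points for *LOXL4*, -7.37 for *P4HA1* and 7.37 for *P4HA2*. The order of the share differences of *LOXL2* and *LOXL1* turned over without sgCtrl replicate 1 (-2.23 against 2.44 points) and without sg*NF2*-1 replicate 1 (-2.95 against 3.12).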
